A study of Rattus norvegicus with 45 samples.

Results

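Risperidone was set directly against haloperidol in rat striatum, with 5 arrays of risperidone rats and 5 of haloperidol rats, 10 of the 45 arrays of the series. The arrays were chosen by their labels alone, as all striatum samples of the 2 drugs, and vehicle rats were left out of the fit and are given as values only. Male Sprague-Dawley rats were 9 to 11 weeks old when osmotic minipumps were implanted under the skin, and received drug or vehicle for 21 days. Risperidone was given at 5 mg/kg/d and haloperidol at 0.25 mg/kg/d, and the vehicle group of 5 rats received dilute acetic acid in water. No genotype differed between groups. Each drug was tested at 1 dose, so drug and dose cannot be told apart. Risperidone rats carry animal numbers 52 to 60, haloperidol rats 41 to 50 and vehicle rats 32 to 36, and any effect of the order in which animals were handled cannot be told apart from treatment. The same rats also gave frontal cortex and hippocampus. The submitters' tissue field speaks of mouse, while the organism given is rat.

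Haloperidol, a typical antipsychotic, mainly blocks dopamine D2-type receptors. Risperidone, an atypical antipsychotic, blocks D2 receptors together with serotonin 5-HT2A, alpha-adrenergic and histamine H1 receptors. Most neurons of the striatum are GABAergic projection neurons. Those of the direct pathway carry D1 receptors, substance P and dynorphin, and those of the indirect pathway carry D2 receptors, adenosine 2A receptors and enkephalin. D2 receptors lower cAMP, and dopamine and glutamate acting on these neurons switch on immediate early genes through protein kinase A and the ERK kinase cascade.

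Of 9 measured striatum markers, 8 read higher in all 10 striatum arrays than in any frontal cortex or hippocampus array of the same rats, and 1 risperidone array stood apart in them. The log2 intensity of Ppp1r1b, the DARPP-32 phosphatase inhibitor of projection neurons, lay between 12.06 and 12.83 in striatum, 8.37 and 9.41 in frontal cortex, and 8.19 and 8.91 in hippocampus. Bcl11b, a transcription factor, overlapped between striatum (10.69 to 11.84) and hippocampus (10.46 to 10.94). The mean of the 9 markers, taken relative to the mean of all 15 striatum arrays, was -0.91 in risperidone replicate 3. The other 4 risperidone arrays lay between -0.09 and 0.14, the haloperidol arrays between -0.15 and 0.12, and the vehicle arrays between 0.00 and 0.24. The 4 pyramidal neuron markers that passed the filter, which mark cortex and hippocampus, ran the other way in replicate 3, at 2.20. Their other risperidone arrays lay between -1.02 and 0.84, the haloperidol arrays between -0.68 and 1.35 and the vehicle arrays between -1.03 and -0.11. Among defining pyramidal markers, Slc17a7, the vesicular glutamate transporter of these neurons, ranged from 6.19 to 10.56 over the 10 drug-treated arrays, and Neurod1, Emx1 and Tbr1 were under the filter. The mean correlation of replicate 3 with the other 9 arrays was 0.971, against 0.980 to 0.985 for those 9. The main counts and many of the values are therefore also given without risperidone replicate 3, and the plot of list medians gives both for every list. In whole tissue, fewer cells of a type and less RNA per cell cannot be told apart. The median intensity was 88.1 to 91.7 in the risperidone arrays, 87.8 to 89.6 in the haloperidol arrays and 88.6 to 91.1 in the vehicle arrays, and no 2 of the 10 drug-treated arrays were identical.

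**Figure D1:**
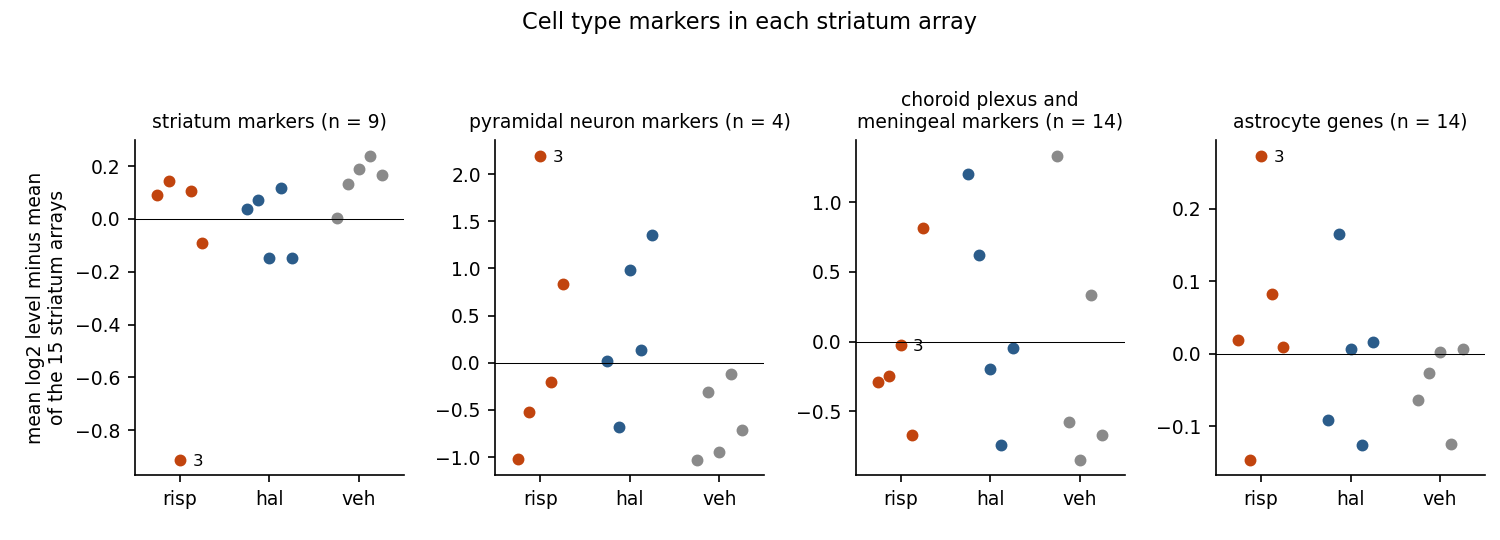
Mean log2 level of marker genes in each striatum array, relative to the mean of the 15 striatum arrays, for risperidone, haloperidol and vehicle rats (points are replicates 1 to 5, left to right; n is the number of genes). Risperidone replicate 3 lies at -0.91 for striatum markers and at 2.20 for pyramidal neuron markers, while choroid plexus and meningeal markers spread widely within all 3 groups.

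Of 18625 tested probe sets, 3 were called different between the drugs, and all 3 were lower after risperidone. They were 1 probe set of Wdr33, a factor of the machinery that cleaves and polyadenylates pre-mRNA, 1 of Atrx, a chromatin remodeling protein, and 1394362_at, to which no gene is assigned here. A probe set was called at a Benjamini-Hochberg adjusted p under 0.05 from limma and at least a 1.2-fold difference. By this rule 0.0161% of probe sets were lower and 0% were higher after risperidone. At an unadjusted p under 0.05, limma counted 652 probe sets (283 higher, 369 lower). That is a smaller share than the 0.05 this threshold gives on average where no probe set differs. Differences were small in general: the median absolute log2 difference was 0.05, the 99th percentile was 0.32, and 23 probe sets differed by 1.5-fold or more. All 5 risperidone arrays lay above all 5 haloperidol arrays for 48 probe sets (0.258%) and below them for 19 (0.102%). Both shares are below what a random division of these arrays into groups of 5 gives on average.

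**Figure D2:**
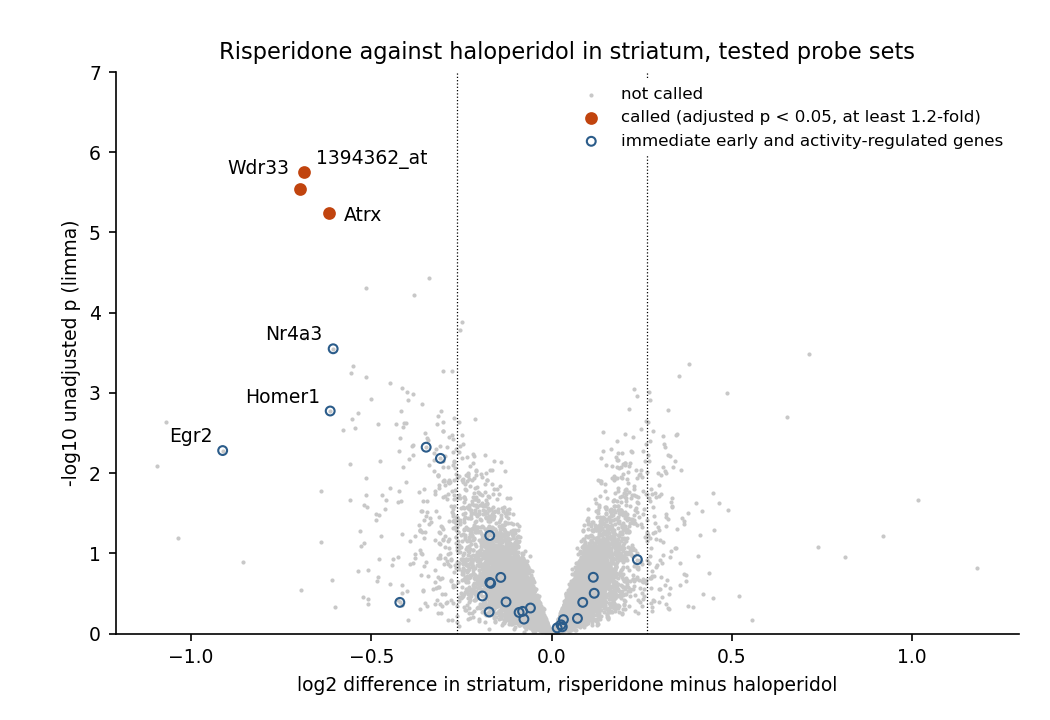
Log2 difference in striatum, risperidone minus haloperidol, against -log10 of the unadjusted p from limma for each of 18625 probe sets (grey points), with the 3 called ones as filled circles and 26 immediate early and activity-regulated genes as open circles at their probe set of smallest p. The dotted lines mark 1.2-fold either way, and the called points all lie to the left, below -0.6.

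The probe set 1394362_at had the smallest p. Its log2 intensity was 6.50, 6.34, 6.91, 6.40 and 6.49 in risperidone rats 1 to 5, against 7.43, 7.33, 7.40, 6.91 and 7.02 in haloperidol rats, with vehicle rats between 6.96 and 7.38. The groups did not overlap, but risperidone replicate 3 and haloperidol replicate 4 were equal to the second decimal. The difference was -0.69 ± 0.11 (SE, n = 5 per group, adjusted p = 0.0267 from limma), or 1.61-fold lower after risperidone.

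Wdr33 differed by as much, with 1 haloperidol rat inside the range of the risperidone rats. Its probe set 1385240_at read 6.49, 6.25, 6.68, 6.51 and 6.51 in risperidone rats, against 7.38, 7.35, 7.47, 6.63 and 7.10 in haloperidol rats, and 7.42 to 7.58 in vehicle rats. Haloperidol replicate 4 is the rat that overlapped. The difference was -0.70 ± 0.12 (SE, adjusted p = 0.0267 from limma). The other Wdr33 probe set differed by 0.08 (95% interval -0.03 to 0.18), so the lower signal was seen by 1 of the 2 probe sets of the gene.

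Atrx was called in 1 of its 5 probe sets. Probe set 1393798_at read 7.25, 6.99, 7.44, 7.80 and 7.20 in risperidone rats, against 8.14, 7.89, 8.09, 7.83 and 7.82 in haloperidol rats, and 7.73 to 8.18 in vehicle rats. The drug groups did not overlap, with risperidone replicate 4 closest to the haloperidol rats. The difference was -0.62 ± 0.11 (SE, adjusted p = 0.0355 from limma), or 1.53-fold. The other 4 Atrx probe sets also differed below 0, by -0.16 to -0.23, and none was called. Of these, 2 had 95% intervals below 0 (-0.40 to -0.07 at -0.23, and -0.43 to -0.0055 at -0.22).

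These 3 calls rested on the pooled spread of the regions and on the rats included. With the 10 striatum arrays fitted alone, limma called 0 probe sets (382 at an unadjusted p under 0.05) at unchanged differences. The count of lower probe sets was 0 without any one of risperidone replicates 1, 2 or 5 or haloperidol replicates 1, 2, 3 or 5. In those limma fits the adjusted p of the 3 probe sets lay between 0.0610 and 0.391. Without risperidone replicate 4, 2 were lower, both among the 3. Without haloperidol replicate 4, 4 were lower, and 2 of them were among the 3.

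**Figure D3:**
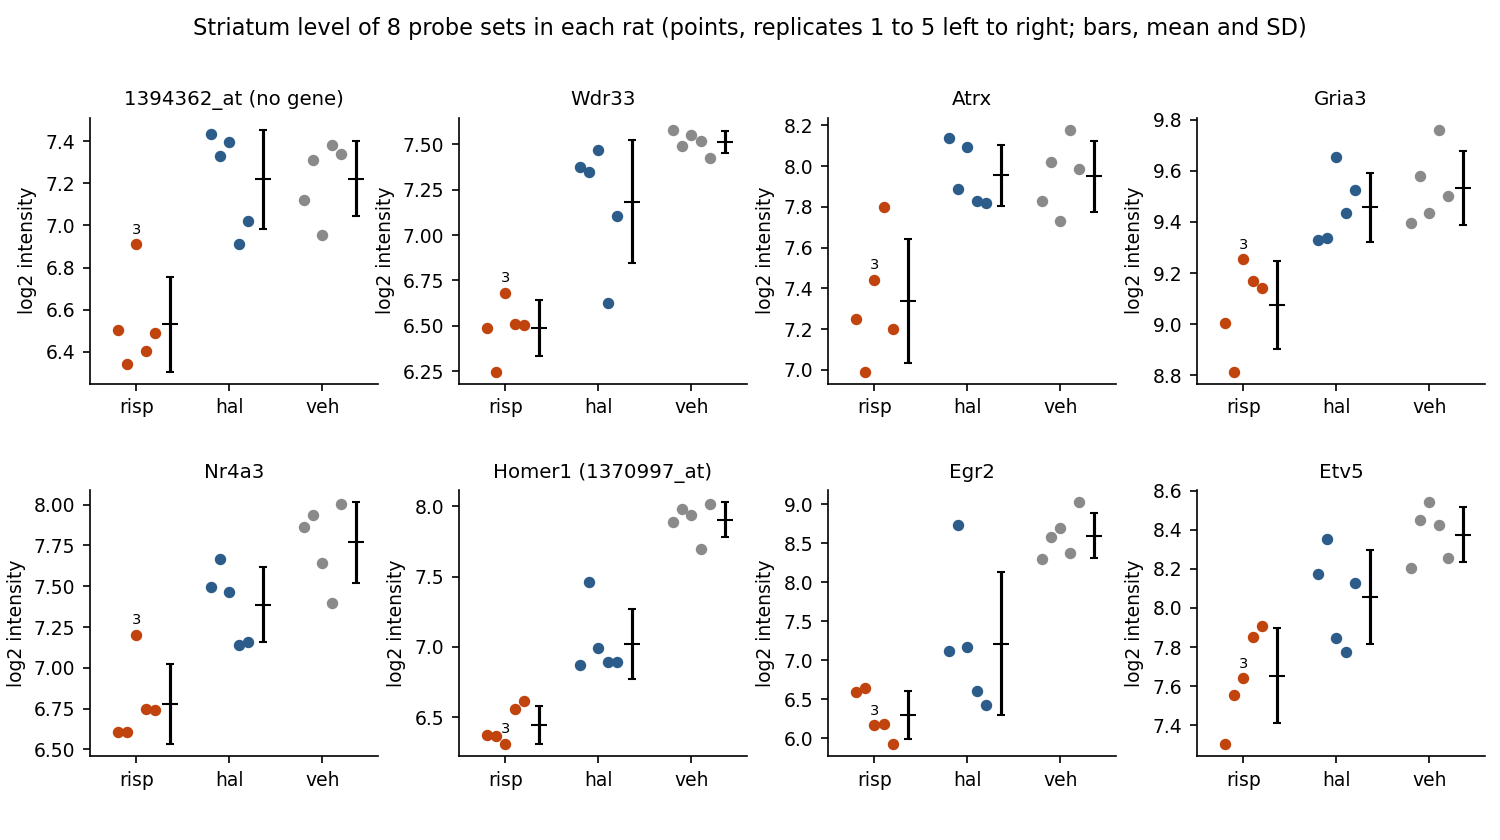
Log2 intensity in striatum of 8 probe sets in each risperidone, haloperidol and vehicle rat (points are replicates 1 to 5, left to right, with risperidone replicate 3 numbered; bars are the mean and SD). The 2 drug groups do not overlap for 1394362_at, Atrx, Gria3 and Homer1. The vehicle rats average above both for Wdr33, Gria3, Nr4a3, Homer1, Egr2 and Etv5, and close to the haloperidol rats for 1394362_at and Atrx.

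Without risperidone replicate 3, 9 probe sets were called, 2 higher (0.0107%) and 7 lower (0.0376%) after risperidone. The 3 above were among the 7 lower, with differences of -0.78, -0.75 and -0.64 for 1394362_at, Wdr33 and Atrx. The other 4 lower ones were Nr4a3, an orphan nuclear receptor induced by neuronal activity (-0.71, adjusted p = 0.0181 from limma), Spag9, a scaffold of the JNK kinase cascade (-0.60, adjusted p = 0.0272), Gria3, a subunit of AMPA-type glutamate receptors (-0.43, adjusted p = 0.0291), and Dnajb14, a co-chaperone (-0.39, adjusted p = 0.0291). The 2 higher ones were Dnpep, an aminopeptidase (0.29, adjusted p = 0.00743), and Traip, a ubiquitin ligase (0.34, adjusted p = 0.0291). With all 10 rats these 6 had adjusted p of 0.174 (Dnajb14), 0.184 (Spag9), 0.189 (Gria3), 0.525 (Nr4a3), 0.901 (Dnpep) and 1.0 (Traip) in limma. Traip in replicate 3 was at 7.23, against 7.96 to 8.21 in the other risperidone rats and 7.74 to 7.83 in haloperidol rats. For this gene replicate 3 alone lay below the haloperidol rats and the other 4 lay above them. The 4 Spag9 probe sets spread from -0.51 to 0.13 with all rats, and the other Dnajb14 probe set differed by -0.13. With the striatum arrays fitted alone without replicate 3, 0 probe sets were called.

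Immediate early genes, the first genes that neurons switch on after synaptic input, held the lowest difference of any 1 gene in the signaling lists. The list of ERK feedback regulators had the lower median (-0.115 against -0.108). Of 34 listed genes, 31 were matched to a probe set of their own and 26 passed the filter, and 0 were called. At an unadjusted p under 0.05, 5 of the 26 were lower after risperidone and 0 were higher, where 2.53% of all 10238 genes were lower and 2.07% were higher by the same rule. The median difference of the 26 was -0.11 (-0.03 without risperidone replicate 3), against 0.0014 over all genes (0.0062). Differences were below 0 for 18 of the 26 (17 without replicate 3), against 49.1% of all genes. The 5 were Nr4a3, Homer1 and the zinc finger transcription factors Egr1, Egr2 and Egr4.

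Nr4a3 read 6.61, 6.61, 7.20, 6.75 and 6.74 in risperidone rats, against 7.50, 7.67, 7.47, 7.14 and 7.16 in haloperidol rats, and 7.40 to 8.0 in vehicle rats. Risperidone replicate 3 was the only risperidone rat inside the haloperidol range. The difference was -0.61 ± 0.15 (SE, adjusted p = 0.525 from limma).

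Homer1, a postsynaptic scaffold of which neurons make a short, activity-induced form, showed 2 levels of difference among its 5 probe sets. Probe set 1370997_at read 6.37, 6.36, 6.31, 6.56 and 6.61 in risperidone rats, against 6.87, 7.46, 6.99, 6.89 and 6.89 in haloperidol rats, and 7.70 to 8.02 in vehicle rats. The 3 groups did not overlap, in the order risperidone, haloperidol, vehicle. The difference between the drugs was -0.58 ± 0.18 (SE, adjusted p = 0.968 from limma), and 1370454_at differed by -0.61 ± 0.18 (adjusted p = 0.901). The other 3 Homer1 probe sets differed by -0.14, -0.15 and -0.23, and by 0.00, -0.03 and -0.04 without risperidone replicate 3, when the first 2 stayed at -0.54 and -0.63. The files do not say which form each probe set reads.

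Egr2 had the largest difference of the list and the widest spread. Its probe set read 6.59, 6.65, 6.16, 6.18 and 5.92 in risperidone rats, against 7.12, 8.74, 7.17, 6.60 and 6.42 in haloperidol rats, and 8.30 to 9.03 in vehicle rats. Haloperidol replicate 2 was at the vehicle level, and replicates 4 and 5 were at that of the risperidone rats. The difference was -0.91 ± 0.30 (SE, 95% interval -1.53 to -0.30, adjusted p = 1.0 from limma), and it was -0.53 without haloperidol replicate 2.

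Egr1 averaged 10.93 ± 0.11 in risperidone rats and 11.24 ± 0.17 in haloperidol rats (SD, n = 5 each), with 11.58 in vehicle rats. Egr4 averaged 7.90 ± 0.23 in risperidone rats and 8.25 ± 0.29 in haloperidol rats, with 8.52 in vehicle rats. Their differences were -0.31 and -0.35 (-0.27 and -0.28 without risperidone replicate 3), with 95% intervals of -0.52 to -0.09 and -0.58 to -0.12, and both had an adjusted p of 1.0 in limma. Other activity genes lay closer to 0: Fos differed by -0.17 (95% interval -0.74 to 0.40), Nr4a1 by -0.17 (-0.46 to 0.12), Arc, a synaptic protein made on activity, by -0.09 (-0.39 to 0.21), and Slc25a25, a mitochondrial carrier, by -0.06 (-0.23 to 0.11). Without risperidone replicate 3 these 4 differences were -0.33, -0.06, -0.04 and -0.0094. The levels of these genes in both drug groups averaged below those of vehicle rats, at 8.66 and 8.72 against 9.32 for Slc25a25.

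The promoters of Egr2 and Egr4 are shown because both genes were in the activity group and because the ERK and protein kinase A pathways act on such genes through CArG boxes, bound by serum response factor, and cAMP response elements, bound by CREB. Each runs from 250 bases before to 50 after the start site in RefSeq (GRCr8 build), and capitals mark a CArG box or the letters TGACG of a cAMP response element on either strand.
Egr2 (chr20:21054392-21054691, minus strand): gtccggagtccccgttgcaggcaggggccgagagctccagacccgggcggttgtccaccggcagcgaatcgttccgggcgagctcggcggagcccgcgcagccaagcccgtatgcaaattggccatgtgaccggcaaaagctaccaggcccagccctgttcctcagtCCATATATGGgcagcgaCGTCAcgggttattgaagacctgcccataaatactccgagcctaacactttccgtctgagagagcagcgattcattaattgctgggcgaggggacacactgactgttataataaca
Egr4 (chr4:119607768-119608067, minus strand): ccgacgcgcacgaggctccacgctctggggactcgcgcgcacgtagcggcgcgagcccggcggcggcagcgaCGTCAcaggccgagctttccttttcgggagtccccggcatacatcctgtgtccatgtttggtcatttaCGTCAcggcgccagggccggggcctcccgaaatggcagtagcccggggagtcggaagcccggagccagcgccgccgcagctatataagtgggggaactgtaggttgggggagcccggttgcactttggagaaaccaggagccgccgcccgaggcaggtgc
The Egr2 window held 1 CArG box and 1 TGACG match, and the Egr4 window held 2 TGACG matches and 0 CArG boxes. The Homer1 window held neither. Of 33469 promoters of the same length, 21.2% held TGACG and 1.64% held a CArG box. A match describes the letters and was not tied to a difference between the drugs.

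Feedback regulators of the ERK cascade, which the pathway itself switches on, had mostly negative differences, and none passed the test. Of 13 listed genes, 9 passed the filter and 0 were called. Differences were below 0 for 8 of the 9 (7 without risperidone replicate 3), against 49.1% of all genes. The median was -0.11 (-0.12 without that rat). At an unadjusted p under 0.05, 2 were lower after risperidone, where 2.53% of all genes were lower by the same rule. Etv5, an ETS transcription factor, read 7.30, 7.56, 7.64, 7.85 and 7.91 in risperidone rats, against 8.17, 8.35, 7.85, 7.77 and 8.13 in haloperidol rats, and 8.20 to 8.54 in vehicle rats. Haloperidol replicates 3 and 4 lay within the risperidone range. The difference was -0.40 ± 0.11 (SE, adjusted p = 0.762 from limma), and -0.40 without risperidone replicate 3. Spry3, of the Sprouty inhibitors, differed by -0.23 (95% interval -0.43 to -0.03), and by -0.16 (-0.36 to 0.04) without that rat. Dusp6, the phosphatase of ERK, differed by -0.22 (-0.53 to 0.09), and by -0.29 (-0.62 to 0.03) without it.

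No difference beyond the spread between rats was detected for dopamine, serotonin, adrenergic, histamine and muscarinic receptor genes, and their intervals were wide. Among dopamine receptors and dopamine-handling genes, 5 of 11 listed genes passed the filter, among serotonin receptors 6 of 13, and among adrenergic, histamine and muscarinic receptors 9 of 16. In each of these lists, 0 genes were called and 0 reached an unadjusted p under 0.05. Drd2, the D2 receptor, read 10.89, 10.85, 9.53, 10.86 and 10.63 in risperidone rats, against 10.83, 10.77, 10.54, 10.91 and 10.65 in haloperidol rats, and 10.63 to 10.99 in vehicle rats. Apart from replicate 3 the drug groups overlapped fully. The Drd2 difference was -0.19 (95% interval -0.71 to 0.33), and 0.07 (-0.43 to 0.56) without that rat. Drd1, the D1 receptor, differed by -0.13 (-0.67 to 0.41), and by 0.11 (-0.41 to 0.62) without it.

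Htr2a, the 5-HT2A receptor, differed by -0.03 (95% interval -0.26 to 0.19), and by 0.03 (-0.21 to 0.28) without risperidone replicate 3. Hrh1, the H1 receptor, differed by 0.18 (-0.03 to 0.40), and by 0.07 (-0.11 to 0.26) without that rat, which held the highest level at 7.08. Adra2c, an alpha2-adrenergic receptor, differed by -0.07 (-0.38 to 0.24), and by 0.14 (-0.09 to 0.36) without it. Chrm4, the muscarinic M4 receptor of direct pathway neurons, differed by 0.07 (-0.19 to 0.33), and by 0.24 (0.03 to 0.44, adjusted p = 1.0 from limma) without it.

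Genes of projection neurons showed negative medians that turned positive without risperidone replicate 3. The median was -0.16 over 4 indirect pathway genes (0.07 without replicate 3), -0.07 over 8 direct pathway genes (0.09), and -0.09 over 21 transcription factors and signaling genes of these neurons (0.10). Of these 21, 19 were below 0 with all rats and 4 without replicate 3. None of the genes in the 3 lists was called. The same rat held the lowest striatum markers and the highest pyramidal neuron markers, whose part in these medians was not tested beyond leaving it out. Leaving out that rat changed no gene of these lists to a called one. Of the 8 direct pathway genes, 5 were below 0 with all rats and 2 without that rat. At an unadjusted p under 0.05, 1 direct pathway gene, Sfxn1, was higher after risperidone and 0 were lower. In the other 2 lists 0 genes reached that threshold, and over all genes 2.07% were higher by this rule.

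Penk, the enkephalin precursor of indirect pathway neurons, averaged 13.63 ± 0.24 in risperidone rats and 13.68 ± 0.11 in haloperidol rats (SD, n = 5 each), a difference of -0.05 (95% interval -0.45 to 0.35), and of 0.05 (-0.37 to 0.47) without replicate 3. Adora2a, the adenosine 2A receptor of the same neurons, differed by -0.22 (-0.58 to 0.15), and by 0.05 (-0.16 to 0.26) without replicate 3. On the side of the direct pathway, Tac1, the precursor of substance P, read 11.19, 11.57, 10.34, 11.36 and 11.20 in risperidone rats, against 11.48, 11.65, 11.29, 11.54 and 11.32 in haloperidol rats, and 11.67 to 12.13 in vehicle rats. All drug-treated rats lay below all vehicle rats for this gene. The Tac1 difference between the drugs was -0.32 (-0.78 to 0.14), and -0.12 (-0.55 to 0.31) without replicate 3. Pdyn, the dynorphin precursor, differed by -0.25 (-0.77 to 0.28), Ppp1r1b by -0.05 (-0.39 to 0.29), and Foxp1, a transcription factor of projection neurons, by -0.18 (-0.41 to 0.06). Without replicate 3 these were -0.04 (-0.58 to 0.49) for Pdyn, 0.09 (-0.23 to 0.41) for Ppp1r1b and -0.03 (-0.21 to 0.16) for Foxp1.

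**Figure D4:**
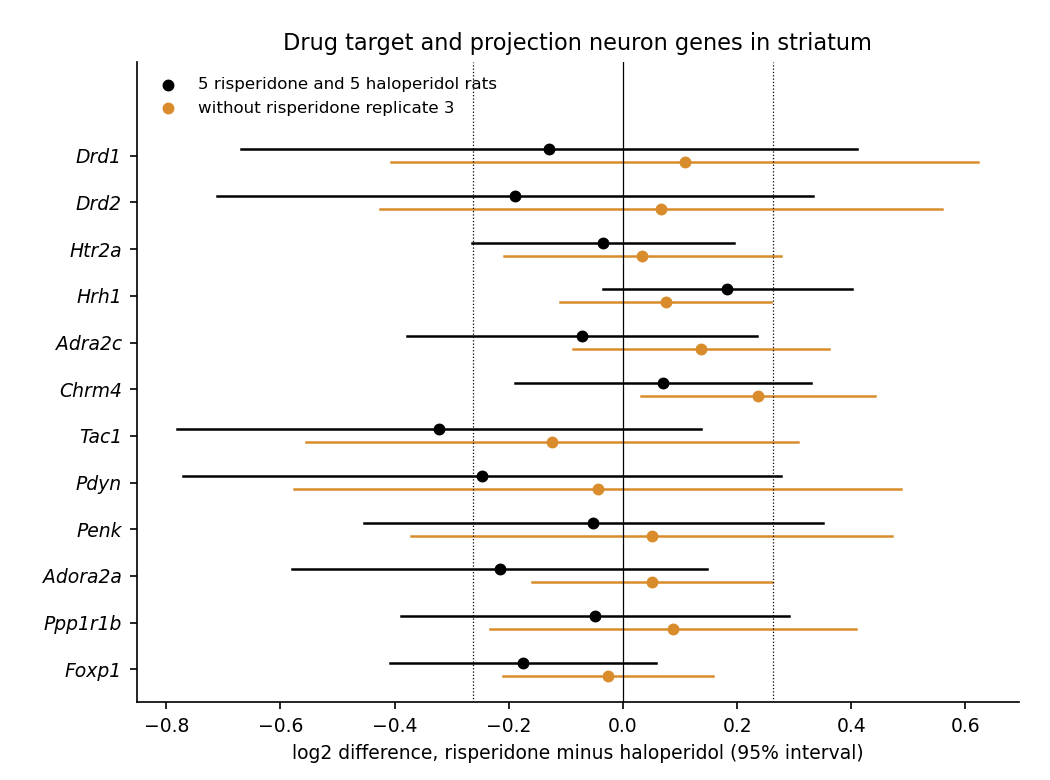
Log2 difference in striatum, risperidone minus haloperidol, with its 95% interval from limma, for 12 drug target and projection neuron genes, with all 10 rats (black) and without risperidone replicate 3 (orange). The dotted lines mark 1.2-fold either way. All 12 intervals include 0 with all rats, and 11 of the 12 points move to the right without replicate 3, those of Drd1, Drd2, Htr2a, Adra2c, Penk, Adora2a and Ppp1r1b across 0.

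Among glutamate receptors, the AMPA receptor subunits Gria3 and Gria1 were the 2 of 17 genes below 0 at an unadjusted p under 0.05. By the same rule 2.53% of all genes were lower, and 0 of the 17 were called. Gria3 read 9.00, 8.81, 9.25, 9.17 and 9.14 in risperidone rats, against 9.33, 9.34, 9.66, 9.44 and 9.52 in haloperidol rats, and 9.39 to 9.76 in vehicle rats. The drug groups did not overlap, and the haloperidol rats lay in the range of the vehicle rats apart from the lowest 2. The Gria3 difference was -0.38 ± 0.08 (SE, adjusted p = 0.189 from limma), and its other probe set differed by -0.09. Gria1 averaged 8.41 ± 0.25 in risperidone rats and 8.70 ± 0.20 in haloperidol rats (SD, n = 5 each), a difference of -0.29 (95% interval -0.50 to -0.09). The median of the 17 receptors was -0.04, and 0.05 without risperidone replicate 3. In the release machinery of synaptic vesicles (22 genes, median 0.01), 2 genes were lower at an unadjusted p under 0.05, beside the same 2.53%. The 2 were Cplx2, a complexin that clamps vesicle fusion (-0.35, 95% interval -0.57 to -0.12), and Nsf, the ATPase that takes SNARE complexes apart (-0.21, -0.37 to -0.05). The 3 Nsf probe sets spread from -0.21 to 0.0013. Medians of GABA (13 genes), potassium channel (26) and sodium and calcium channel lists (24) were -0.01, -0.03 and -0.07, with 0 called, and turned to 0.03, 0.0031 and 0.05 without risperidone replicate 3.

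Of 41 genes of protein kinase A, cAMP and CREB signaling, the pathway that D2 receptors restrain, 0 were called and the median was -0.02. For 23 of them the 95% interval lay within 1.2-fold either way, against 68.5% of all genes. Crebbp, the coactivator that CREB recruits, had the smallest p of the list: 1 of its 5 probe sets read 5.29, 5.08, 5.91, 5.61 and 5.74 in risperidone rats, against 6.09, 6.20, 6.32, 5.85 and 5.87 in haloperidol rats, and 5.84 to 6.40 in vehicle rats. Only risperidone replicate 3 reached the haloperidol range. The difference was -0.54 ± 0.16 (SE, adjusted p = 0.901 from limma), while the 5 probe sets together spread from -0.54 to 0.08. Akap9, an anchor of protein kinase A, differed by -0.12 (95% interval -0.33 to 0.08), and by -0.04 (-0.25 to 0.17) without risperidone replicate 3. Its mean was 8.27 in risperidone rats and 8.40 in haloperidol rats, with 8.84 in vehicle rats.

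Of 18 circadian clock genes, 0 were called, and 3 reached an unadjusted p under 0.05, beside 2.53% of all genes lower and 2.07% higher. The 3 were Clock, the activator (-0.18, 95% interval -0.33 to -0.03), Hlf, an output factor (-0.26, -0.51 to -0.02), and Nr1d1, the repressor REV-ERB alpha (0.16, 0.02 to 0.31). Without risperidone replicate 3, Clock differed by -0.10 (-0.23 to 0.03), and the 3 probe sets of Clock spread from -0.18 to -0.02 and those of Hlf from -0.26 to 0.0088 with all rats. The median of the list was 0.03. Of 13 glucocorticoid-responsive genes 0 were called, and their median was 0.01.

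Among the lists, those of housekeeping and stress genes were the most tightly bounded. Over all genes, 68.5% had a 95% interval within 1.2-fold either way. For 51 of 52 respiratory chain subunits and all 26 cytosolic ribosomal protein genes that passed the filter, the 95% interval of the difference lay within 1.2-fold either way, and the medians were 0.01 and 0.02. In heat shock and the unfolded protein response, 23 of 29 genes were bounded in this way, with a median of -0.02. At an unadjusted p under 0.05, 3 genes of this list were lower after risperidone and 0 were higher. Over all genes, 2.53% were lower by the same rule. The 3 were Atf6, a sensor of endoplasmic reticulum stress (-0.26, -0.41 to -0.10), Hsp90ab1, a cytosolic chaperone (-0.15, -0.28 to -0.02), and Pdia3. The other probe set of Atf6 differed by -0.05 and that of Hsp90ab1 by -0.03. Hspa5, the chaperone BiP, differed by -0.15 (-0.32 to 0.02), and by -0.09 (-0.27 to 0.09) without risperidone replicate 3. In cholesterol synthesis, 13 of 21 genes were bounded within 1.2-fold, a smaller share than over all genes, and the median was 0.04. Insig1, which holds back the sterol sensor, differed by 0.11 (-0.05 to 0.28) and Msmo1, a sterol oxidase, by 0.13 (-0.01 to 0.26). In the respiratory chain 1 gene, Ndufs7, was higher after risperidone at an unadjusted p under 0.05, beside 2.07% of all genes. None of the genes of these lists was called.

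Glial and vascular lists also held 0 called genes. Among 14 astrocyte genes the median was 0.06 (0.01 without risperidone replicate 3). At an unadjusted p under 0.05, 2 were higher after risperidone, where 2.07% of all genes were higher by the same rule. The 2 were Aldh1l1, a folate enzyme typical of astrocytes (0.25, 95% interval 0.06 to 0.44), and Gja1, the gap junction protein connexin 43 (0.21, 0.02 to 0.40). The other Gja1 probe set differed by 0.02. Ntrk2, the receptor of BDNF, read 9.42 to 9.51 in risperidone rats, against 9.19 to 9.39 in haloperidol rats, and 9.32 to 9.44 in vehicle rats. The drug groups did not overlap in this probe set, at a difference of 0.13 (0.03 to 0.24, adjusted p = 1.0 from limma), but the 4 Ntrk2 probe sets spread from -0.08 to 0.16. Microglia and complement genes (12), oligodendrocyte genes (17), and endothelial and smooth muscle genes (17) had medians of 0.06, -0.0043 and -0.07, and of -0.0083, -0.03 and 0.0033 without risperidone replicate 3. That rat had the highest microglia score of the 15 striatum arrays (0.41) and the lowest endothelial score (-0.47), whose part in the results was not tested. Of 24 inflammation and stress response genes, in part ones that the study names in human brain, 9 passed the filter, with a median of 0.02 (-0.02 without replicate 3).

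Choroid plexus and meningeal markers spread widely between rats. Of 20 listed genes 14 passed the filter, 0 were called and 0 reached an unadjusted p under 0.05, and the median was -0.26 (-0.28 without risperidone replicate 3). Their mean level, relative to that of the 15 striatum arrays, ran from -0.67 to 0.82 in risperidone rats, against -0.74 to 1.2 in haloperidol rats and -0.85 to 1.33 in vehicle rats, so the groups overlapped throughout. Ttr, which the choroid plexus secretes, ran from 7.17 to 14.44 over the 10 arrays, and Kl was under the filter. Over 2 erythrocyte genes the median was -0.25, and Hbb differed by -0.36. The part of these tissues in the results above was not tested.

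**Figure D5:**
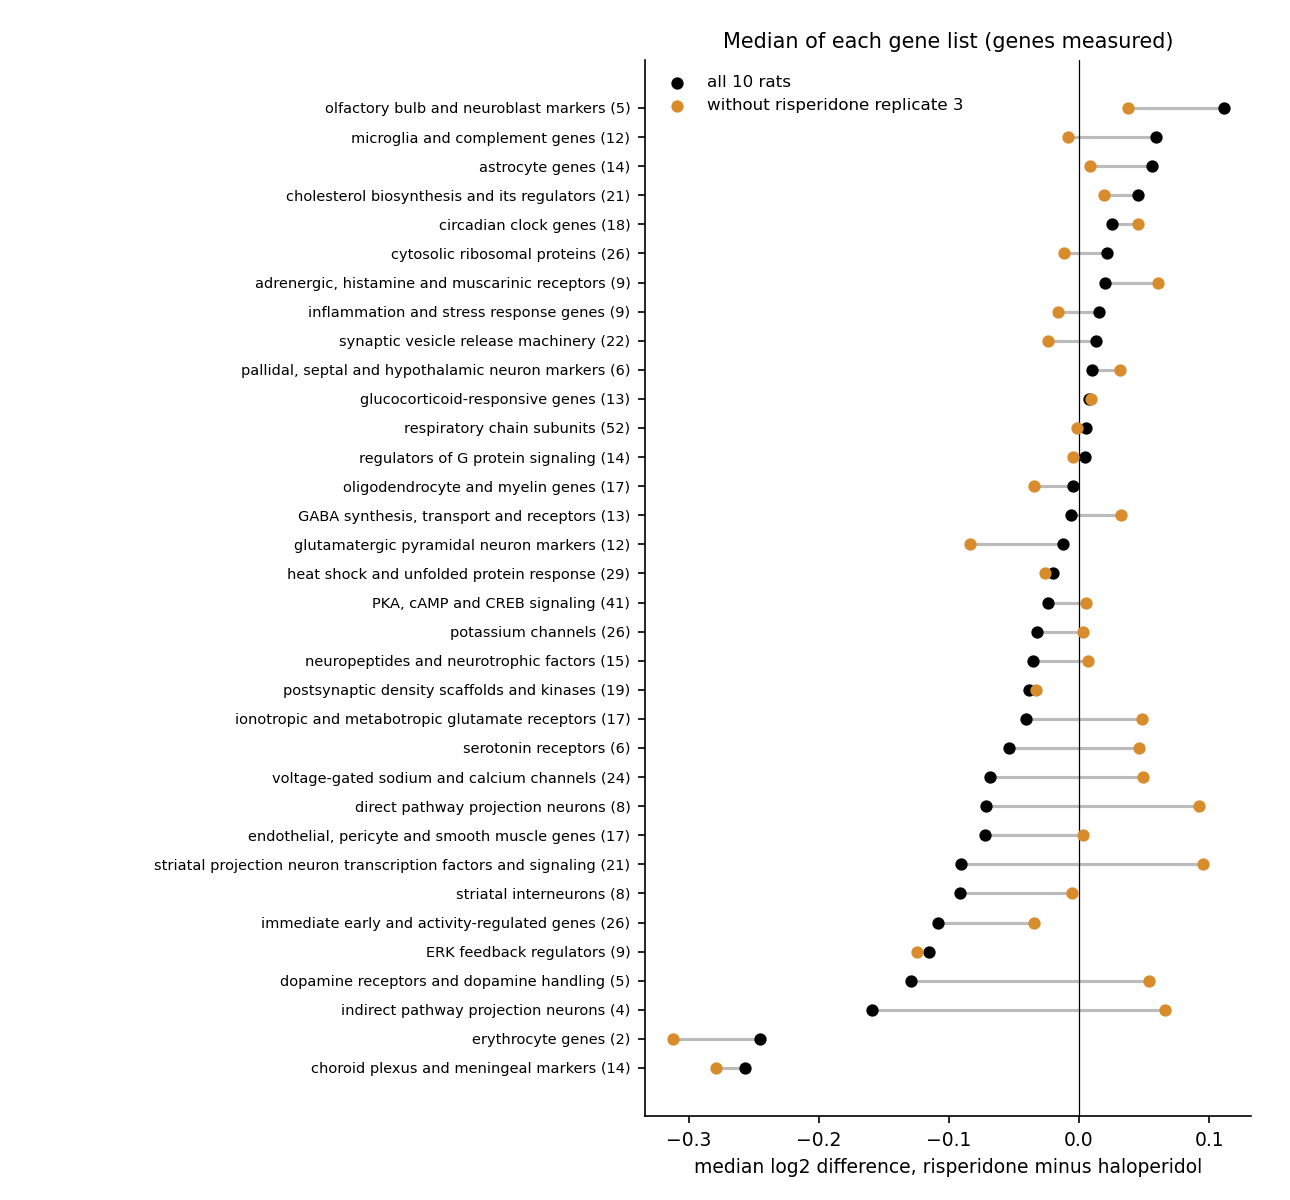
Median log2 difference, risperidone minus haloperidol, over the measured genes of each of 34 lists in striatum, with all 10 rats (black) and without risperidone replicate 3 (orange), each gene at its probe set of highest level. Without that rat 12 lists below 0 move above it, the 3 projection neuron lists among them, and 6 move the other way. Of the 9 below 0 in both, choroid plexus and meningeal markers (-0.26 and -0.28) and erythrocyte genes (-0.25 and -0.31) lie lowest.

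Over the 34 lists together, 528 genes were tested and 0 were called, and 20 were lower and 6 higher after risperidone at an unadjusted p under 0.05, beside 2.53% lower and 2.07% higher over all genes by that rule. The size of difference that the data leave room for can be given in its place. For 11497 of 18625 probe sets (61.7%) the 95% interval of the difference lay within 1.2-fold either way, and for 96.5% within 1.5-fold. Without risperidone replicate 3 the first share was 58.7%. The median standard error was 0.085 on the log2 scale.

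The same contrast in the other 2 regions of these rats gave 0 called probe sets by limma in frontal cortex and 0 in hippocampus. At an unadjusted p under 0.05, limma counted 3124 of the 18625 probe sets in frontal cortex and 801 in hippocampus, against 652 in striatum. Frontal cortex thus held the most, with a lowest adjusted p of 0.0974 (0.945 in hippocampus). The number of called probe sets therefore does not rank the regions by how far the drugs differ. The difference of the drug contrast, striatum minus frontal cortex, was tested directly and was called for 2 probe sets (0.0107%) at an adjusted p under 0.05, with 1973 at an unadjusted p under 0.05. One was that of Wdr33, at -0.70 in striatum and 0.19 in frontal cortex, a difference of -0.89 ± 0.15 (SE, adjusted p = 0.0179 from limma). In frontal cortex Wdr33 read 6.88, 6.68, 6.47, 6.51 and 6.33 in risperidone rats, against 6.33, 6.23, 6.48, 6.38 and 6.48 in haloperidol rats, which overlapped. The other was that of Zrsr2-ps1, annotated as a pseudogene of the splicing factor gene Zrsr2, whose signal a near-identical copy could share. It read 7.98, 7.84, 8.07, 8.04 and 8.03 in risperidone striatum, against 8.19, 8.36, 8.20, 8.29 and 8.19 in haloperidol striatum, and 8.28 to 8.59 in vehicle striatum. Its groups did not overlap in striatum, where the difference was -0.25 (adjusted p = 0.383 from limma). In frontal cortex it was 0.18, a difference between regions of -0.43 ± 0.07 (SE, adjusted p = 0.0179 from limma). The other of the 2 Zrsr2-ps1 probe sets differed by -0.08 in striatum. The count of probe sets called between striatum and frontal cortex was 0 without risperidone replicate 1 or haloperidol replicate 2, 3 or 5. It was between 1 and 9 without any other rat. It was also 0 without the random rat block, and with the replicate number as a block.

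Between striatum and hippocampus, 0 probe sets (0%) differed in the drug contrast, with 773 at an unadjusted p under 0.05 in limma. Wdr33 had the smallest adjusted p, 0.233, at 0.09 in hippocampus. For the activity genes Egr2, Homer1, Nr4a3 and Egr1, the differences in frontal cortex were -1.05, -0.54, -0.42 and -0.41. In hippocampus they were -0.52, -0.34, -0.34 and -0.21. Their differences between striatum and frontal cortex were 0.14, -0.08, -0.19 and 0.10, with standard errors of 0.37, 0.22, 0.18 and 0.13, and none was called. Other activity genes went both ways: Fos, Nr4a1, Arc and Slc25a25 differed by -0.69, 0.03, 0.14 and 0.11 in frontal cortex. In hippocampus these genes differed by -0.45, -0.04, -0.06 and 0.03. Egr4 differed by -0.25 in frontal cortex and -0.10 in hippocampus. Etv5 differed by -0.36 in frontal cortex and -0.18 in hippocampus. Atrx differed by -0.01 in frontal cortex and -0.09 in hippocampus, and its difference between striatum and frontal cortex, -0.61, had an adjusted p of 0.179 in limma. Apart from the striatum markers, levels were not compared across regions, since the arrays of each region follow a scale of their own.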

How the data were processed

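The authors extracted RNA from rat brain regions and hybridised it to Affymetrix rat genome arrays. Per the labels, the deposited values are intensities on a linear scale, made with RMA (Robust Multi-array Average) in R 2.7.2. Arrays have no read depth, and the number of arrays limits the precision. Intensities were put on the log2 scale, 57 control probe sets were left out, and the 18625 of 31099 probe sets at or above the 40th percentile of the mean over the 10 striatum arrays were tested. Of these, 14063 carry 1 gene, 307 several and 4255 none in the platform annotation, with symbols updated through RefSeq.

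One limma 3.58.1 fit (R 4.3.3, package data.table in version 1.17.8) gave group means over the 30 arrays of the 10 drug-treated rats, with the rat as random block (correlation 0.228, 27.9 degrees of freedom), and Benjamini-Hochberg adjustment was made over all probe sets of a comparison. The method was tested on simulated data. A gene is given at its probe set of smallest p. List medians take the probe set of highest level. Intervals are 95% and unadjusted. Standard errors and intervals use the spread pooled over the 3 regions, not that of the striatum rats alone. Genes are named from called ones with no overlap between the drugs, the 3 genes of smallest p in each list, and a fixed set of drug target and signaling genes. Further ones, such as 1394362_at, Wdr33, Egr1, Dnpep, Traip, Spag9, Dnajb14 and Zrsr2-ps1, were picked with their values known. The comparison, genes and lists were chosen with earlier results of these data known. The replicates are separate rats.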

Additional observations from a re-analysis of the deposited data

Results flagged for a closer look

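Of 106 groups of 5 rats, 10 held a rat whose gap to its nearest neighbor took up more than 0.71 of the group's range. For 1 group chosen beforehand, chance gives about 1 in 20. These groups share rats, and some genes, Traip among them, were picked with their values known. The count of 10 can therefore not be set against that rate. In 9 of the 10 this rat was risperidone replicate 3. It was the highest for Nr4a3 (gap 0.767 of the range, at 7.20 against 6.61 to 6.75 in the other 4 rats) and 1394362_at (0.714). It was the lowest for Drd2 (0.814), Pdyn (0.805), Adra2c (0.796), Chrm4 (0.752), Traip (0.747), Adora2a (0.713), and the mean of the striatum markers (0.778). The other group was haloperidol for the Homer1 probe set 1370997_at (0.801), where haloperidol replicate 2 was at 7.46 and the other 4 rats were between 6.87 and 6.99.

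The contrast of risperidone with haloperidol differed between striatum and frontal cortex by -0.89 for Wdr33 and by -0.43 for Zrsr2-ps1. Both had an adjusted p of 0.0179 in limma, and each rests on 1 of the 2 probe sets of its gene.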

How the results depend on the processing

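In striatum, 0 probe sets were higher and 3 lower after risperidone. The lower count was 0 with the 10 striatum arrays alone, with the 15 striatum arrays including vehicle, and with a filter at the 60th percentile, which leaves Atrx alone of the 3 in the test (adjusted p = 0.073 from limma). With array weights, in which risperidone replicate 3 had the lowest striatum weight (0.245), 1 was higher and 6 were lower. Median centring, quantile normalization, no filter, a filter over all 45 arrays, all 45 arrays in the fit, no random rat block, a trended and robust variance, the pyramidal markers as covariate and no fold threshold each kept 0 and 3. Leaving out 1 rat gave 0 to 2 higher and 0 to 7 lower.

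The difference between striatum and frontal cortex was called for 2 probe sets. The count was 8 with all 45 arrays, 0 without the random rat block, 1 after quantile normalization, 5 with no filter, 6 with the filter over all 45 arrays, 4 with array weights, and 0 to 9 without 1 rat (0 without risperidone replicate 1 or haloperidol replicate 2, 3 or 5, 1 without risperidone replicate 2, 7 without risperidone replicate 4, 9 without risperidone replicate 5, 3 without haloperidol replicate 4). That between striatum and hippocampus was called for 0 to 1, the 1 without haloperidol replicate 4. With only striatum arrays no difference between regions can be fitted.

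The replicate numbers name different rats. Same-numbered rats deviated together by r = 0.03 to 0.46, and 3 of 5 risperidone rats correlated best with their own number. With the number as replicate block, 0 were higher, 0 lower and 0 differed between striatum and frontal cortex.

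Of 50 named probe sets under the other settings, 6 changed sign, all with array weights: Slc25a25 (0.028), Drd1 (0.052), Drd2 (0.0078), Adra2c (0.068), Penk (0.0062) and Ppp1r1b (0.076). Leaving out 1 rat gave ranges across 0 for Fos (-0.33 to 0.019), Slc25a25 (-0.12 to 0.0038), Drd1 (-0.22 to 0.11), Drd2 (-0.27 to 0.067), Htr2a (-0.10 to 0.034), Adra2c (-0.16 to 0.14), Chrm4 (-0.00063 to 0.24), Penk (-0.10 to 0.051), Adora2a (-0.35 to 0.051) and Ppp1r1b (-0.11 to 0.088). The cause of these changes was not tested. Signal near background limits low probe sets.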
